A study of Mus musculus with 11 samples.

Results

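A set of 10 genes of the chemokine system was followed across the 4 groups of the experiment, namely the ligands Ccl2, Ccl6, Ccl7, Ccl9, Cxcl1, Cxcl12, Cxcl14 and Cx3cl1 and the receptors Ccr2 and Cxcr4. They were chosen by name, and they are 10 of the 50600 genes listed in the count table. Pulmonary artery banding (PAB) ties a thread around the vessel that leaves the right ventricle, so that this ventricle pumps against a narrowed opening. Neonatal mice (C57BL/6 in the labels, C57Bl/6J in the study's methods) had PAB or a sham operation on the day of birth (P0), and RNA was sequenced at postnatal day 3 (P3) or 7 (P7). The sham pups went through the same cooling anaesthesia and opening of the chest as the PAB pups, without the band. There were 11 libraries, 3 of P3 sham, 3 of P3 PAB, 3 of P7 sham and 2 of P7 PAB hearts. The labels call the tissue heart and the study's methods call it ventricles, so the RNA of the banded right ventricle was not measured apart from that of the left. No label says whether a library came from 1 pup or from several, and p-values measure the spread between these libraries.

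Chemokines are small secreted proteins that bind receptors coupled to G proteins and direct the movement of white blood cells. Ccl2 and Ccl7 act on Ccr2, the receptor by which inflammatory monocytes leave the bone marrow and enter injured tissue, including the heart. Cxcl12 acts on Cxcr4 and on the scavenging receptor Ackr3, and this axis guides progenitor cells and the growth of coronary vessels. Cx3cl1 is anchored in the membrane of endothelial and other cells and binds Cx3cr1 of monocytes and macrophages, Cxcl1 draws neutrophils through Cxcr2, and Ccl6 and Ccl9 are rodent chemokines made largely by myeloid cells. Cxcl14 is made by epithelia and stroma.

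Cxcl12 and Cxcr4 are a ligand and its receptor, and in both the P7 PAB libraries were below the P7 sham libraries, although Cxcl12 was under 1.5-fold and neither passed the test with sex class, read from Xist and Y-linked genes, as a term (adjusted p of 0.17 for Cxcl12 and 0.32 for Cxcr4). Their promoters are shown for that reason, as the 250 bases before the RefSeq transcription start on the GRCm38.p6 build, written 5′ to 3′ along the gene's strand. Capitals mark the GC box GGGCGG or its reverse complement, the letters bound by factors of the Sp family. The first sequence lies at chr6:117168285-117168534 on the plus strand and the second at chr1:128592300-128592549 on the minus strand.
Cxcl12 promoter: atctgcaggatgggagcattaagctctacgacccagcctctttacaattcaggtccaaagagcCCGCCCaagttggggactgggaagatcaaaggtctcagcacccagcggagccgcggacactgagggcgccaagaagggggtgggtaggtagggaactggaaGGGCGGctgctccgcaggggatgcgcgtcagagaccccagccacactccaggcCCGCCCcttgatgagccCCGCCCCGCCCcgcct
Cxcr4 promoter: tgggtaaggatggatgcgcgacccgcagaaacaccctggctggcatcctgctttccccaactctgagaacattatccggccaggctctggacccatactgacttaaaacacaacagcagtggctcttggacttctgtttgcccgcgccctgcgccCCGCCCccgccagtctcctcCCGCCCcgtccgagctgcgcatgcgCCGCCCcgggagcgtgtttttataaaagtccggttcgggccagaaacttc
The Cxcl12 window held 5 GC boxes, from 187 to 6 bases before the start, of which the last pair overlap, and its GC content was 64.4%. The Cxcr4 window held 3, from 95 to 45 bases before the start, and its GC content was 61.2%. Of 32851 RefSeq promoters of the same length, 32.7% held at least 1 such box, 8.47% at least 3 and 1.93% at least 5. In the full windows from 250 bases before to 50 after the start, searched on both strands, 8 of the 10 genes had an entry. In these the GC box was matched in 4 of the 8, Cxcl12, Cxcr4, Cx3cl1 and Cxcl14 (35.7% of all promoters). Of these genes only Cxcr4 was called at P7. Cxcl12 (log2 fold change -0.49) and Cx3cl1 (0.48) were under 1.5-fold, and Cxcl14 was not tested. The NF-kappaB consensus was matched in Cxcl1 and Ccl9 (8.46% of all promoters), the AP-1 motif TGANTCA in Ccl9 (7.81%), the hypoxia response core ACGTG in Cxcl1 (19.6%), and TATAAA in Cxcr4, Cx3cl1 and Ccl9 (13.6%). The E-box CANNTG, which overlaps ACGTG where that core is preceded by C, was matched in 5 of the 8 (72.3%). These matches describe letters in the windows and are not measurements of binding.

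Levels are in CPM (reads of a gene for every 1e6 reads counted, after TMM scaling), with mean ± SD. Genes were tested with edgeR's quasi-likelihood test in a fit of all 11 libraries, with Benjamini-Hochberg adjustment over the 15808 genes that passed a filter on low counts. A call needed both 1.5-fold or more and an adjusted p no higher than 0.05. Depth was 19274045 to 26820228 counts per library, and a count of 0 allows up to 3 counts (counting error only), which is 0.114 to 0.148 CPM. At P7 the sham and PAB libraries differed in more than the band. Xist, which coats the inactive X chromosome, ranged from 630 to 1061 CPM in the 3 P7 sham libraries and P3 sham replicate 1, and from 0.303 to 0.873 CPM in the other 7, so that sex class (high Xist, or Y-linked genes expressed) and PAB cannot be told apart at P7. In the P7 PAB libraries the counts also fell with gene length, by 0.15 and 0.14 log2 units per doubling of exonic length, against slopes of -0.0291 to 0.0668 in the other 9. Values with sex class as a term and with the length trend removed are given for the P7 differences of Ccl2, Ccl7, Cxcl1, Cxcl12, Cx3cl1 and Cxcr4. The class term leans on P3 sham replicate 1, the 1 library that shares a group with the other class. In bulk RNA, fewer cells of a type and less RNA per cell cannot be told apart.

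The genes differed widely in their counts. Cxcl12 had 1793 to 3488 counts per library, Cxcr4 84 to 184 and Cx3cl1 86 to 172. Ccl2 had 12 to 73 counts, Ccl6 21 to 63 and Ccl9 23 to 54. The genes Ccr2 (12 to 38), Cxcl1 (8 to 29) and Ccl7 (4 to 18) had few counts, so small differences in these 3 were not detectable at this depth. Cxcl14 had 0 to 2 counts per library and 10 in all, and it was the only one of the 10 genes that did not pass the filter.

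Levels of different genes were compared as RPKM, which is CPM per kilobase of exons. Cxcl12 was the highest in every group, at 10.2 (sham) and 11.2 RPKM (PAB) at P3 and 18.9 (sham) and 13.5 RPKM (PAB) at P7. In 3 of the groups Cxcr4 came next, at 2.88, 3.07 and 3.81 RPKM, apart from every other gene. In P7 PAB the second place was held by Ccl2, at 2.57 RPKM (2.53 to 2.60), above Cxcr4 at 2.23 RPKM (2.03 to 2.43), and their libraries did not overlap. In P7 sham Ccl2 was in the fifth place at 0.732 RPKM (0.512 to 0.909), overlapping Ccl6 (0.902 RPKM) and Ccl9 (0.609 RPKM). At P3 Ccl2 and Cx3cl1 overlapped in both groups, with Ccl2 at 1.55 and 2.15 RPKM and Cx3cl1 at 1.49 and 1.75. Ccr2 had the lowest mean of the 9 tested genes in every group, at 0.0908 to 0.208 RPKM.

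**Figure D1:**
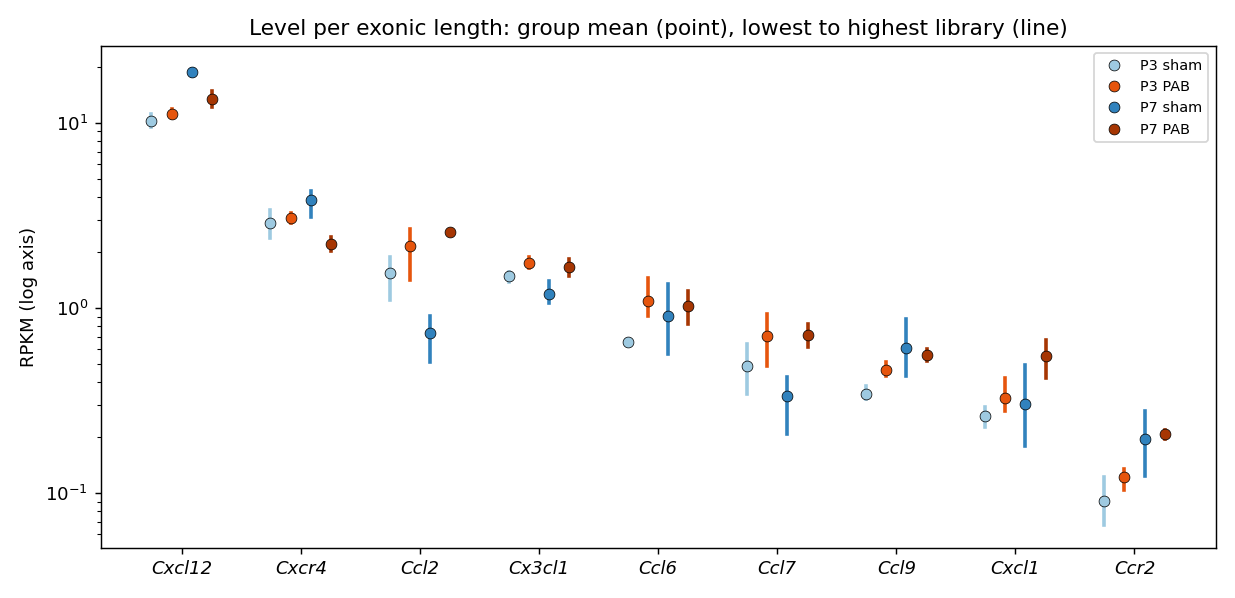
Level of the 9 tested genes in RPKM on a log axis, with a point for the mean of each of the 4 groups and a line from the lowest to the highest library. Cxcl12 lies above 10 RPKM in each group mean, and Ccl2 passes from the fifth place in P7 sham to the second in P7 PAB.

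Ccl2 (ENSMUSG00000035385, chromosome 11, 82035571 to 82037453, plus strand) encodes the main monocyte attractant among the ligands of Ccr2. It was at 2.15, 1.26 and 1.89 CPM in the P3 sham libraries, at 3.03, 1.60 and 2.72 in P3 PAB, at 1.04, 0.583 and 0.880 in P7 sham, and at 2.88 and 2.96 in P7 PAB. The P7 sham libraries were the 3 lowest of the 11, and both P7 PAB libraries lay well above them, while the P3 groups overlapped. At P7 Ccl2 rose with PAB from 0.833 ± 0.230 (SD, n = 3) to 2.92 ± 0.0525 CPM (SD, n = 2), a log2 fold change of 1.80 (SE 0.32, adjusted p = 4e-04). Among all tested genes 9.63% were called higher in this comparison. The log2 fold change was 1.43 with the length trend removed (adjusted p = 0.0031) and 2.26 with sex class as a term (adjusted p = 0.0092), and 1.61 to 1.97 when each library was left out in turn. At P3 the log2 fold change was 0.49 (SE 0.27, adjusted p = 0.68). In sham hearts Ccl2 fell from P3 to P7, with a log2 fold change of -1.07 (SE 0.31, adjusted p = 0.016), a call that 5.73% of tested genes shared in this direction. Without P3 sham replicate 1 (-0.90, adjusted p = 0.07) or P7 sham replicate 2 (-0.87, adjusted p = 0.073) it stayed past 1.5-fold with an adjusted p above 0.05. In PAB hearts the corresponding value was 0.25 (SE 0.28, adjusted p = 0.51). The comparison of P7 with P3 sham and that of P7 PAB with P7 sham share the P7 sham libraries, so a low level in those libraries enters both.

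Ccl7 (ENSMUSG00000035373, chromosome 11, 82045712 to 82047525, plus strand), another ligand of Ccr2, begins 8.258 kb after the end of Ccl2. It was at 0.515, 0.380 and 0.276 CPM in P3 sham, 0.747, 0.390 and 0.569 in P3 PAB, 0.296, 0.340 and 0.168 in P7 sham, and 0.655 and 0.493 in P7 PAB. Both P7 PAB libraries were above the 3 P7 sham libraries, and the P3 groups overlapped. The log2 fold change at P7 was 1.11 (SE 0.47) and did not pass the test (adjusted p = 0.068). It rested on 15 and 10 counts in the P7 PAB libraries against 4 to 7 in P7 sham, and it was 0.71 (adjusted p = 0.25) with the length trend removed and 1.74 (adjusted p = 0.12) with sex class as a term. At P3 it was 0.53 (SE 0.39, adjusted p = 0.79). Across the 11 libraries the log2 CPM of Ccl2 and Ccl7 had a Pearson r of 0.774, which includes the differences between groups.

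**Figure D2:**
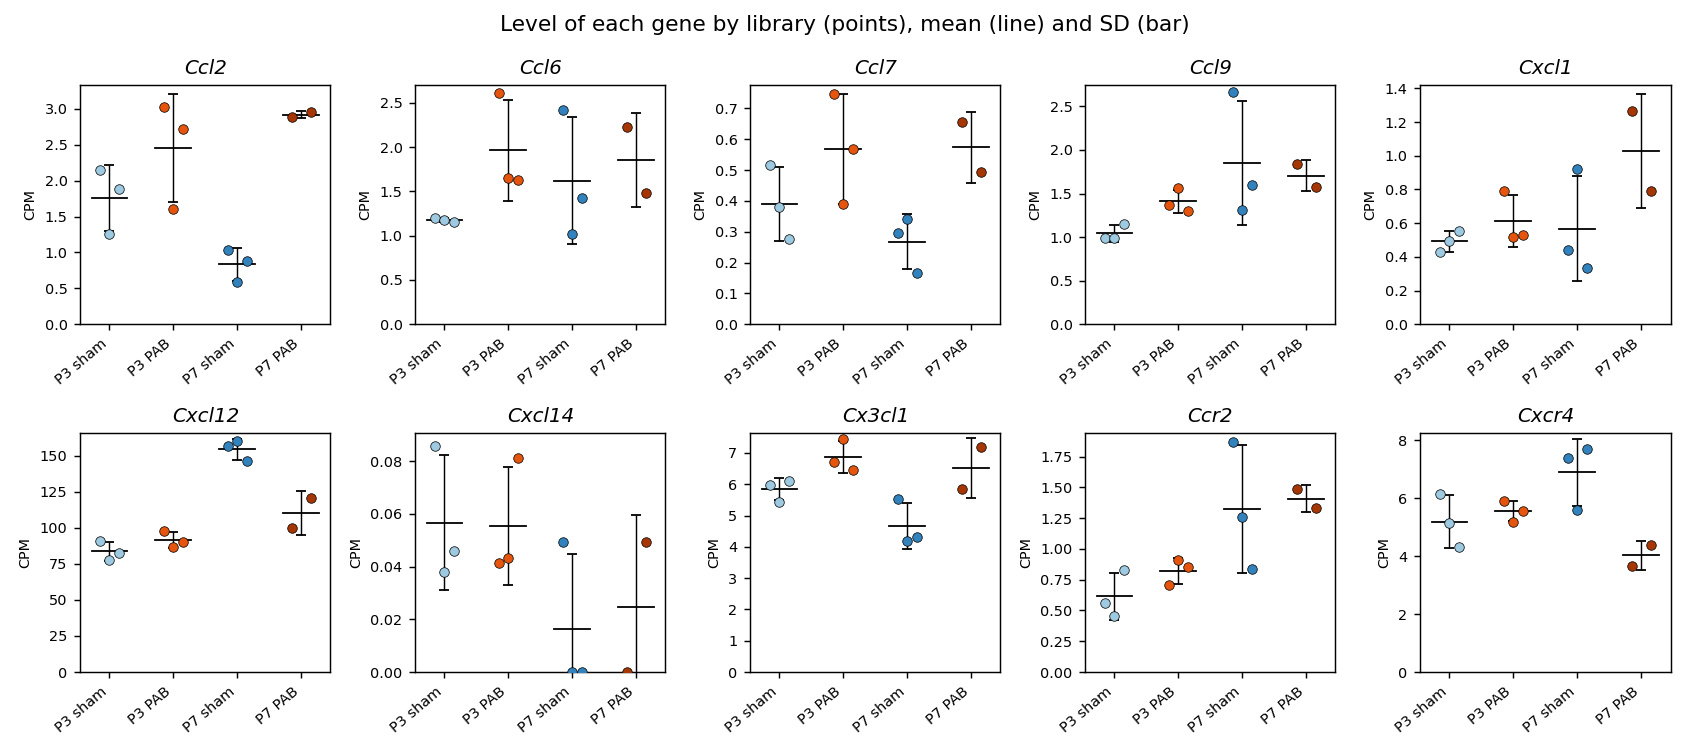
Level of each of the 10 genes in CPM by group, with a point for each library, a line for the mean and a bar for the SD. In P7 PAB, Ccl2 lies above and Cxcl12 and Cxcr4 lie below all 3 P7 sham libraries, and Cxcl14 is close to 0 in all 11 libraries.

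Ccl9 (ENSMUSG00000019122, chromosome 11, 83572919 to 83578636) and Ccl6 (ENSMUSG00000018927, chromosome 11, 83587882 to 83593087) lie next to each other on the minus strand, 9.245 kb apart, and both encode ligands of Ccr1. Ccl6 was at 1.20, 1.18 and 1.15 CPM in P3 sham and at 2.62, 1.65 and 1.63 in P3 PAB. The P3 PAB libraries all exceeded the P3 sham ones, but the log2 fold change of 0.73 (SE 0.31) had an adjusted p of 0.53 in edgeR's test. At P7 Ccl6 was at 2.41, 1.02 and 1.43 CPM in sham and 2.23 and 1.48 in PAB, which overlapped (log2 fold change 0.21, SE 0.34, adjusted p = 0.65). Ccl9 was at 0.987, 0.989 and 1.15 CPM in P3 sham and at 1.37, 1.56 and 1.30 in P3 PAB, again without overlap and again short of the threshold (log2 fold change 0.44, SE 0.27, adjusted p = 0.74). At P7 it was at 2.66, 1.31 and 1.59 CPM in sham and 1.83 and 1.58 in PAB, and the groups overlapped (log2 fold change -0.11, SE 0.29, adjusted p = 0.78). In sham hearts Ccl9 rose from P3 to P7, from 1.04 ± 0.0932 to 1.85 ± 0.712 CPM (SD, n = 3 each), with a log2 fold change of 0.83 (SE 0.27, adjusted p = 0.028). Among all tested genes 5.62% were called higher in this comparison. The level was highest in P7 sham replicate 1. Without P7 sham replicate 1 the log2 fold change was 0.49 (adjusted p = 0.16), and total count scaling gave 0.51 (adjusted p = 0.11). The adjusted p was also above 0.05, at a fold change near that reported, without P3 sham replicate 1 or 2 (0.79 in both, adjusted p of 0.077 and 0.083), with DESeq2 (0.83, adjusted p = 0.055) and with sex class as a term (0.90, SE 0.41, adjusted p = 0.16). Of the 50-base stretches of Ccl9 transcripts, 3.64% occur in other genes too.

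Cxcl12 (ENSMUSG00000061353, chromosome 6, 117168535 to 117181367, plus strand) was the most precisely measured of the 10 genes. It was at 90.8, 77.9 and 82.5 CPM in P3 sham, 97.5, 86.5 and 90.4 in P3 PAB, 157, 160 and 146 in P7 sham, and 99.5 and 121 in P7 PAB. The P7 sham libraries were the 3 highest of the 11, the P7 PAB libraries stood between them and the P3 libraries, and the P3 groups overlapped. In sham hearts Cxcl12 rose with age, the mean going from 83.7 ± 6.50 to 154 ± 7.28 CPM (SD, n = 3 for both), and the log2 fold change was 0.88 (SE 0.082, adjusted p = 2.6e-06). Among all tested genes 5.62% were called higher and 5.73% lower in this comparison. Leaving out each library in turn gave 0.83 to 0.94. With scaling by the total count, under which the median of all genes moved by -0.309, it was 0.57 (adjusted p = 5.6e-05) and below the fold threshold. The summed levels of the fibroblast and endothelial lists were higher at P7 as well, at 4840 to 5370 CPM in P3 sham and 6230 to 6280 in P7 sham for fibroblasts (Dcn, Lum and Mfap5 called higher of 10, list median 0.41) and at 1610 to 1690 and 1770 to 1900 CPM for endothelium (0 higher and 1 lower of 11, list median 0.23), and their part was not tested. In PAB hearts the log2 fold change with age was 0.27 (SE 0.091, adjusted p = 0.026), under 1.5-fold. It was 0.12 without P7 PAB replicate 2 (adjusted p = 0.36), 0.02 with scaling by the total count (adjusted p = 0.87) and 0.44 with the length trend removed (adjusted p = 0.0013). In P7 PAB hearts Cxcl12 was at 110 ± 15.1 CPM (SD, n = 2), and the log2 fold change against sham of -0.49 (SE 0.092, adjusted p = 0.00057) was also under 1.5-fold, so it was not called. That value was -0.63 without P7 PAB replicate 2 (adjusted p = 3e-04), which passes the fold threshold, -0.35 without P7 PAB replicate 1 (adjusted p = 0.016), -0.30 with the length trend removed (adjusted p = 0.017) and -0.31 with sex class as a term (adjusted p = 0.17). At P3 the log2 fold change was 0.13 (SE 0.082, adjusted p = 0.74).

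Cxcl1 (ENSMUSG00000029380, chromosome 5, 90891241 to 90893115, plus strand) was at 0.429, 0.495 and 0.552 CPM in P3 sham, 0.789, 0.520 and 0.528 in P3 PAB, 0.443, 0.923 and 0.335 in P7 sham, and 1.27 and 0.788 in P7 PAB. The groups overlapped at both ages, at P7 because of sham replicate 2. The log2 fold change at P7 was 0.88 (SE 0.42, adjusted p = 0.098), and leaving out each library in turn gave 0.49 (adjusted p = 0.55, without P7 PAB replicate 1) to 1.41 (adjusted p = 0.018, without P7 sham replicate 2), of which the last alone was a call. It was 0.60 both with the length trend removed (adjusted p = 0.28) and with sex class as a term (adjusted p = 0.63). At P3 it was 0.32 (SE 0.40, adjusted p = 0.91). Its receptor gene Cxcr2, not among the 10, had 1 to 9 counts per library and was not tested.

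Cxcl14 (ENSMUSG00000021508, chromosome 13, 56288643 to 56296551, minus strand) had 2, 1 and 1 counts in P3 sham, 1, 1 and 2 in P3 PAB, 1, 0 and 0 in P7 sham, and 0 and 1 in P7 PAB. No difference could be seen at this depth. The summed counts of 4, 4, 1 and 1 correspond to 0.0561, 0.0557, 0.0154 and 0.0232 CPM, with upper exact Poisson 95% limits of 0.144, 0.143, 0.0861 and 0.129 CPM that cover counting error only.

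Cx3cl1 (ENSMUSG00000031778, chromosome 8, 94772009 to 94782427, plus strand) was at 5.97, 5.44 and 6.12 CPM in P3 sham, 6.72, 7.45 and 6.46 in P3 PAB, 5.52, 4.18 and 4.32 in P7 sham, and 5.85 and 7.19 in P7 PAB. At each age the PAB libraries all exceeded the sham ones. At P3 the log2 fold change was 0.24 (SE 0.13, adjusted p = 0.69). At P7 it was 0.48 (SE 0.15, adjusted p = 0.018), from 4.67 ± 0.737 (SD, n = 3) to 6.52 ± 0.949 CPM (SD, n = 2), which is below 1.5-fold and therefore not a call. It was 0.61 without P7 sham replicate 1 and 0.63 without P7 PAB replicate 1, both past the fold threshold with adjusted p of 0.0043 and 0.018, and 0.33 without P7 PAB replicate 2 (adjusted p = 0.18). The adjusted p was also above the threshold without P7 sham replicate 2 (0.41, adjusted p = 0.064) or 3 (0.42, adjusted p = 0.065) and with sex class as a term (0.53, adjusted p = 0.17), while with the length trend removed the value was 0.42 (adjusted p = 0.034). The change with age was -0.32 (SE 0.14, adjusted p = 0.085) in sham hearts and -0.08 (SE 0.15, adjusted p = 0.70) in PAB hearts. With scaling by the total count the sham value was a call (-0.63, adjusted p = 0.0013). It was -0.46 without P7 sham replicate 1 (adjusted p = 0.023) and -0.25 without P7 sham replicate 2 (adjusted p = 0.24). Across the 11 libraries the log2 CPM of Cx3cl1 had a Pearson r of 0.81 with that of Ccl2, group differences included. Its receptor gene Cx3cr1, not among the 10, went the other way at P7, from 11.3, 8.11 and 8.09 CPM in sham to 5.68 and 6.85 in PAB, with a log2 fold change of -0.55 (adjusted p = 0.013) that was below 1.5-fold.

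Ccr2 (ENSMUSG00000049103, chromosome 9, 124101950 to 124113557, plus strand) was at 0.558, 0.457 and 0.828 CPM in P3 sham, 0.706, 0.909 and 0.853 in P3 PAB, 1.87, 1.26 and 0.838 in P7 sham, and 1.49 and 1.33 in P7 PAB. The groups overlapped at each age, and the log2 fold changes with PAB were 0.43 at P3 (SE 0.35, adjusted p = 0.82) and 0.10 at P7 (SE 0.34, adjusted p = 0.83). The 95% interval at P7 ran from -0.61 to 0.82, which includes changes past 1.5-fold in either direction. In sham hearts Ccr2 rose from P3 to P7, from 0.614 ± 0.192 to 1.33 ± 0.520 CPM (SD, n = 3 each), with a log2 fold change of 1.11 (SE 0.33, adjusted p = 0.019). The adjusted p was above 0.05 without P3 sham replicate 1 (1.05, adjusted p = 0.059) or 2 (0.92, adjusted p = 0.085), without P7 sham replicate 1 (0.78, adjusted p = 0.10) and with scaling by the total count (0.79, adjusted p = 0.055). With sex class as a term the log2 fold change was 1.23 with a wider SE of 0.51 (adjusted p = 0.13). Among all tested genes 5.62% were called higher in this comparison. Over the same ages in sham hearts 2 of 7 tested monocyte genes were called higher (Ly6c2, 1.48, and F13a1, 1.17), with a list median of 0.59, and 2 of 14 macrophage genes (C1qa, 0.69, and Folr2, 0.99), with a list median of 0.28. The T cell list had a median of 0.70 over 4 tested genes, of which 1 was called. The part of these cells in the Ccr2 value was not tested. In PAB hearts the value with age was 0.77 (SE 0.35, adjusted p = 0.085). Of the 50-base stretches of Ccr2 transcripts, 2.19% occur in other genes too. The log2 CPM of Ccr2 and Ccl9 had a Pearson r of 0.861 across the 11 libraries, and both were highest in P7 sham replicate 1.

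Cxcr4 (ENSMUSG00000045382, chromosome 1, 128588199 to 128592293, minus strand) was at 6.14, 5.14 and 4.32 CPM in P3 sham, 5.89, 5.20 and 5.56 in P3 PAB, 7.39, 5.59 and 7.71 in P7 sham, and 3.67 and 4.39 in P7 PAB. The P7 PAB libraries lay below all 3 P7 sham libraries, and the P3 groups overlapped. At P7 Cxcr4 fell with PAB from 6.90 ± 1.15 (SD, n = 3) to 4.03 ± 0.507 CPM (SD, n = 2), a log2 fold change of -0.78 (SE 0.18, adjusted p = 0.0026). Among all tested genes 8.59% were called lower in this comparison. The value was -1.07 with the length trend removed (adjusted p = 0.00031). With sex class as a term it was -0.41 (SE 0.28, adjusted p = 0.32), and the call was lost. Leaving out each library in turn gave -0.91 to -0.66, with adjusted p of at most 0.044. At P3 the log2 fold change was 0.09 (SE 0.15, adjusted p = 0.93). With age it was 0.41 in sham hearts (SE 0.15, adjusted p = 0.052) and -0.47 in PAB hearts (SE 0.18, adjusted p = 0.049, under 1.5-fold). The sham value was 0.10 with scaling by the total count (adjusted p = 0.6) and 0.17 with sex class as a term (adjusted p = 0.62). It was 0.54 without P3 sham replicate 1 (adjusted p = 0.027) or P7 sham replicate 2 (adjusted p = 0.019), still under 1.5-fold. The PAB value was a call with scaling by the total count (-0.71, adjusted p = 0.0035) and with the length trend removed (-0.73, adjusted p = 0.005), and it was -0.34 without P7 PAB replicate 1 (adjusted p = 0.29). Ackr3, the scavenging receptor of Cxcl12 and not among the 10, was at 43.4, 41.6 and 38.6 CPM in P7 sham and 34.9 and 38.4 in P7 PAB, with a log2 fold change of -0.17 (adjusted p = 0.12).

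**Figure D3:**
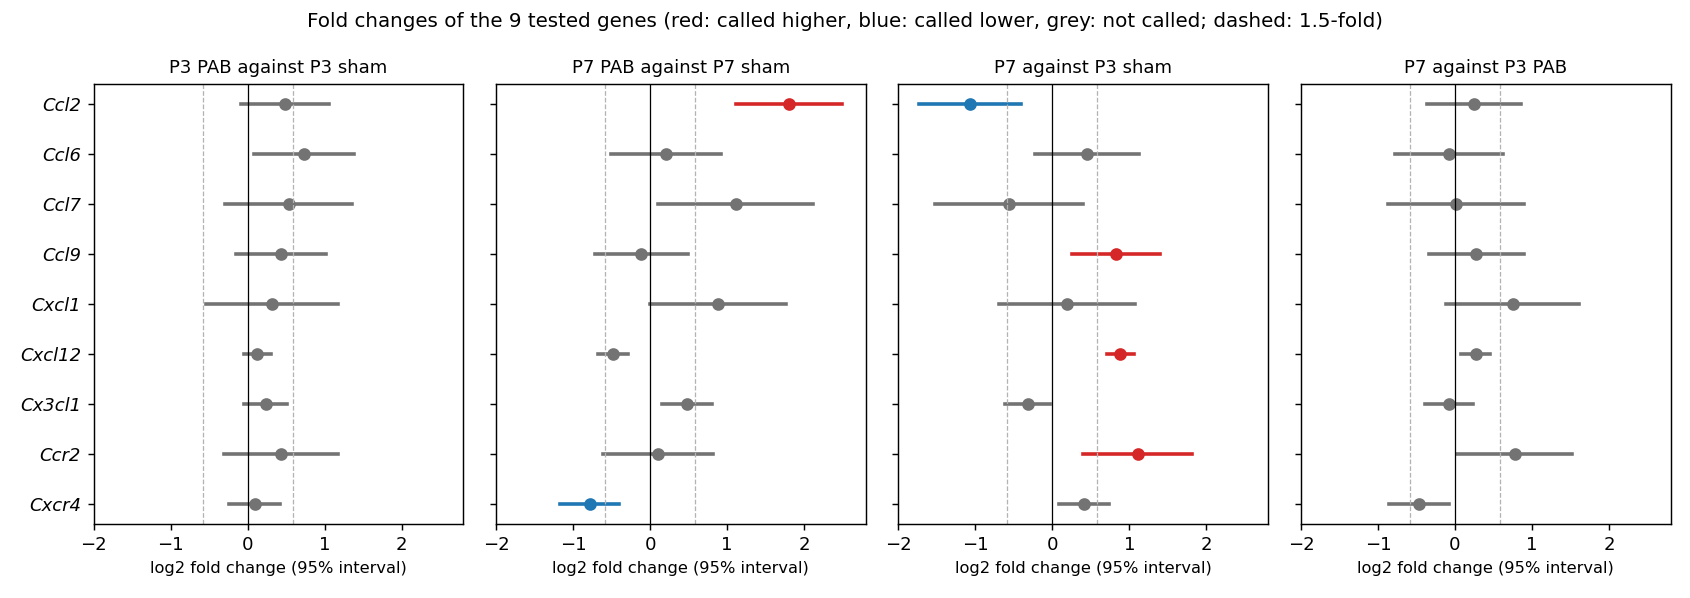
Log2 fold change with its 95% interval for the 9 tested genes in 4 comparisons, where red marks genes called higher, blue genes called lower, grey the rest, and dashed lines 1.5-fold. At P3 all 9 points lie above 0 with no call, and at P7 Ccl2 is called higher (1.80) and Cxcr4 lower (-0.78).

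Counted over the set, PAB at P3 gave no call among the 9 tested genes in edgeR's test, against 0.127% of all tested genes. At an unadjusted p of at most 0.05 and 1.5-fold, Ccl6 alone passed, as did 1.95% of all tested genes, and DESeq2 called none. All 9 log2 fold changes were positive, from 0.09 for Cxcr4 to 0.73 for Ccl6, with a median of 0.44 (all tested genes -0.001). For 3 of them, Ccl6, Ccl9 and Cx3cl1, the PAB libraries all exceeded the sham ones, 33.3% of the 9 against 8.65% of all tested genes. None was wholly below sham (8.02% of all), and 16.7% of all tested genes did not overlap in either direction. The smallest adjusted p was 0.53.

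At P7 the calls were 1 higher and 1 lower of 9, Ccl2 and Cxcr4, which is 22.2% against 18.2% of all tested genes. Groups did not overlap for 5 of the 9, or 55.6%, against 60.3% of all tested genes. Of these 5, 3 were above sham (30.8% of all) and 2 below (29.6% of all). Both shares were thus near those of the whole table.

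With age in sham hearts 4 of 9 were called (44.4%, against 11.3% of all), with Ccl9, Ccr2 and Cxcl12 higher and Ccl2 lower. The count was 1 without P3 sham replicate 1 (10.4% of all), 2 without P3 sham replicate 2 (9.72% of all) or P7 sham replicate 1 (11.6% of all), and 2 with sex class as a term (8.46% of all). In those fits the log2 fold changes of Ccl9 were 0.49 to 0.90, those of Ccr2 0.78 to 1.23 and those of Ccl2 -1.36 to -0.90. With scaling by the total count the calls were 0 higher and 2 lower, Ccl2 and Cx3cl1 (20.7% of all). Groups did not overlap for these 4 alone, 44.4% against 45.3% of all tested genes, with 22.4% of all above and 22.9% below. With age in PAB hearts edgeR called none of the 9, against 17.7% of all tested genes (9.5% higher and 8.2% lower). At an unadjusted p of at most 0.05 and 1.5-fold, Ccr2 alone passed, as did 19.5% of all tested genes, and DESeq2 called none. Groups did not overlap for 4 of the 9 (44.4%), 3 above (32% of all tested genes) and 1 below (30.7% of all), and for 62.8% of all tested genes in either direction.

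Whether the PAB effect at P7 differed from that at P3 was tested as an interaction of age and operation. It passed for Ccl2 (log2 difference 1.31, SE 0.42, adjusted p = 0.033), for Cxcl12 (-0.615, SE 0.12, adjusted p = 0.0025) and for Cxcr4 (-0.88, SE 0.24, adjusted p = 0.015), 3 of 9, and 25.9% of all tested genes passed it. For Ccl2 the PAB effect was larger at P7, and for Cxcl12 and Cxcr4 it was negative at P7 and slightly positive at P3. The value for Cxcl12 passed under every setting and without each library, from -0.76 to -0.45. That of Ccl2 lost the call in 7 of the 11 fits without a library, namely without P3 sham replicate 1 or 3, P3 PAB replicate 2, P7 sham replicate 2 or 3, or either P7 PAB library (log2 differences of 1.09 to 1.36, adjusted p of 0.056 to 0.083), and with the length trend removed (1.00, adjusted p = 0.11). The value of Cxcr4 lost it without P7 PAB replicate 1 (-0.75, adjusted p = 0.08) and with sex class as a term (-0.64, adjusted p = 0.12). For the other 6 tested genes the adjusted p was 0.33 to 0.66.

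**Figure D4:**
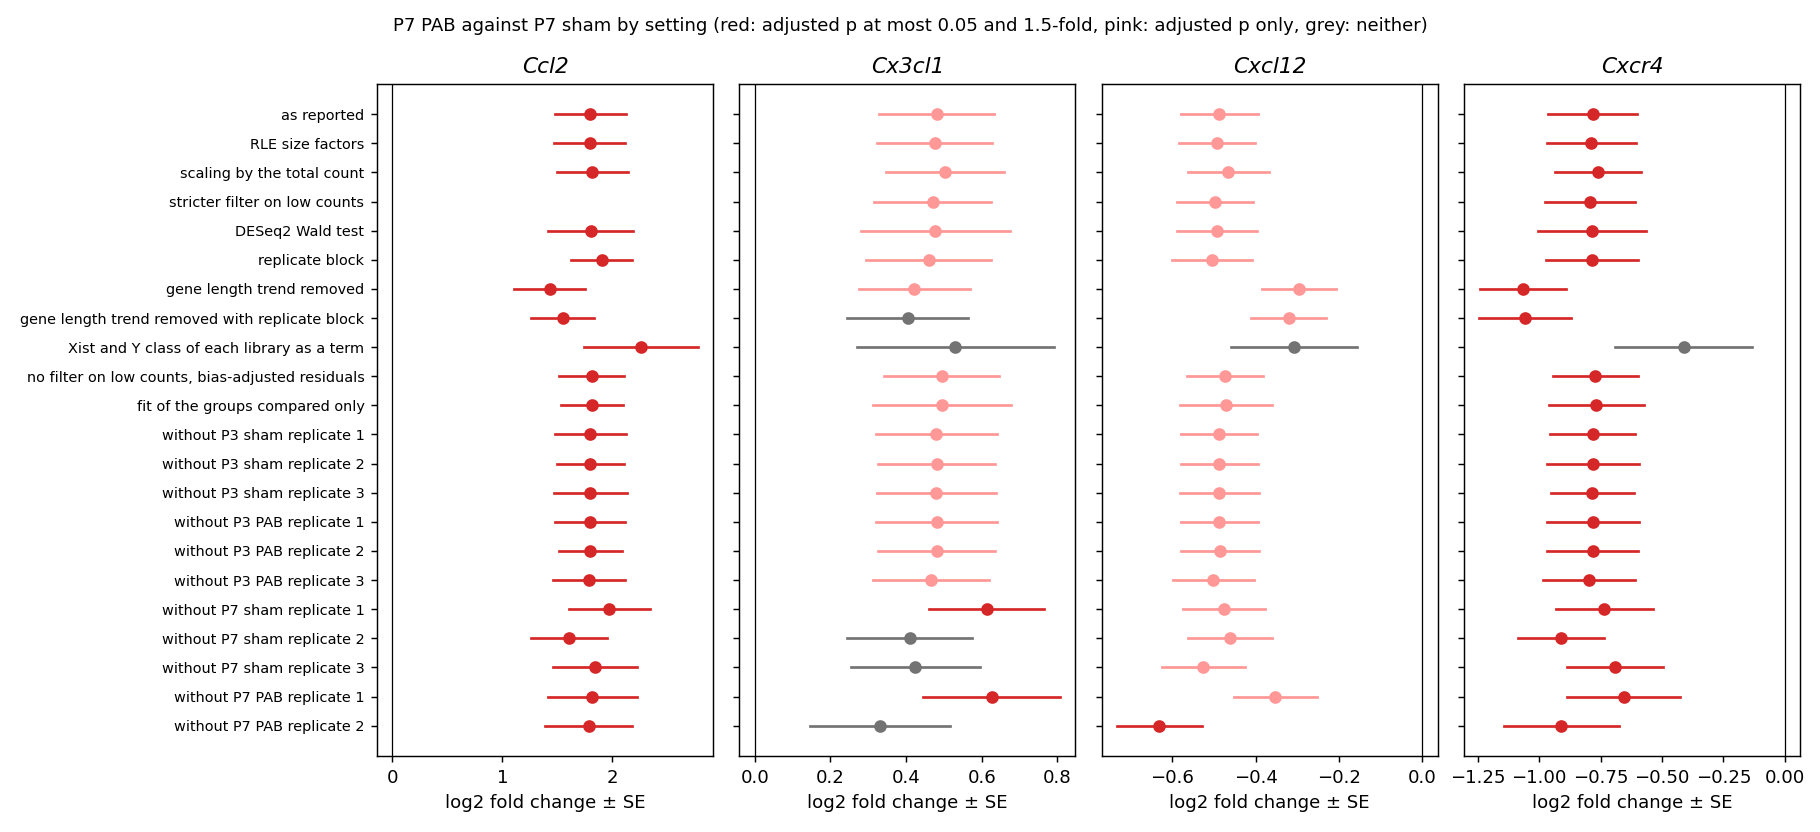
Log2 fold change of P7 PAB against P7 sham, with its SE, for Ccl2, Cx3cl1, Cxcl12 and Cxcr4 under the alternative settings other than the planned unfiltered fit and without each library, where red marks an adjusted p of at most 0.05 and 1.5-fold, pink the adjusted p alone and grey neither. Ccl2 passes both in every fit that tested it (1.43 to 2.26), and Cxcr4 in each one but that with sex class as a term (-0.41).

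The rest of the chemokine family was sparse. Of 30 other ligands listed, 10 passed the filter, and Ccl1, Ccl20 and Ccl26 were at 0 in all 11 libraries. None of the 10 was called at P3, and at P7 3 were higher and 1 lower (9.63% and 8.59% of all tested genes). Ccl27a was at 6.21, 5.88 and 7.80 CPM in P7 sham and 10.5 and 10.2 in P7 PAB (log2 fold change 0.64, adjusted p = 0.002). Pf4, a chemokine of platelets and of some macrophages, was at 5.12, 5.05 and 4.53 CPM against 6.81 and 8.72 (0.66, adjusted p = 0.0024). Cxcl10, an interferon-induced ligand whose exons overlap those of Art3 on the opposite strand, rested on 5 to 16 counts in P7 sham and 30 and 23 in P7 PAB (1.48, adjusted p = 0.029). Ccl21a, a lymphoid chemokine with near-identical copies, was lower (-1.18, adjusted p = 0.033), and its P7 PAB libraries were far apart, at 4.19 and 0.936 CPM. Ccl12, which also binds Ccr2, was above sham in both P7 PAB libraries without passing the test (log2 fold change 1.17, adjusted p = 0.11).

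Of 21 other receptors listed, 8 were tested, none was called at P3, and at P7 1 was higher and 1 lower. Ackr2, a scavenging receptor that takes up inflammatory CC chemokines such as Ccl2, was at 5.83 and 5.32 CPM in P7 sham replicates 2 and 3, 7.09 in replicate 1, and 10.3 and 9.31 in P7 PAB (log2 fold change 0.70, adjusted p = 0.0033). Ccr10, a receptor of Ccl27a, was lower (-1.58, adjusted p = 0.02) on 6 and 5 counts in P7 PAB against 10 to 21 in P7 sham. Ccr1, the receptor of Ccl6 and Ccl9, was at 1.80 to 2.22 CPM in P7 sham and 1.53 and 1.92 in P7 PAB (log2 fold change -0.24, adjusted p = 0.41).

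**Figure D5:**
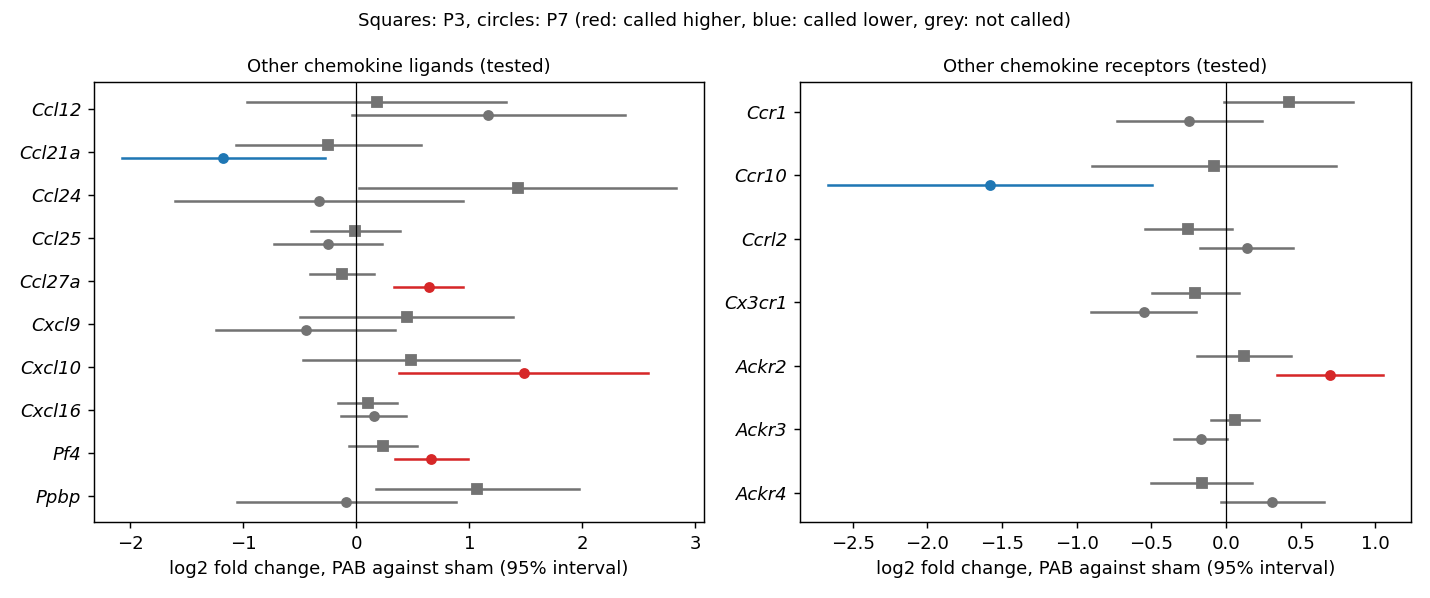
Log2 fold change of PAB against sham, with its 95% interval, for the 10 other ligands that were tested and 7 of the 8 other receptors, with squares for P3 and circles for P7. At P7 Ccl27a, Pf4, Cxcl10 and Ackr2 are called higher (red) and Ccl21a and Ccr10 lower (blue), and no square is coloured.

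Of 28 tested genes of chemokine processing and receptor signalling, none was called at P3, and at P7 Ptk2b was higher (log2 fold change 0.69, adjusted p = 0.00024) and Dock2 lower (-0.68, adjusted p = 0.046). Ptk2b is a tyrosine kinase downstream of chemokine receptors, and Dock2 drives leukocyte migration. Dpp4, a peptidase that cleaves and inactivates Cxcl12, was lower by less than 1.5-fold (-0.47, adjusted p = 0.008), as was Adam10, which sheds Cx3cl1 from the cell surface (-0.37, adjusted p = 0.0013). Among 27 tested inflammatory cytokine and NF-kappaB genes none was called at P3, and at P7 Lif was higher (0.81, adjusted p = 0.03) and Il33 lower (-0.71, adjusted p = 0.022). Tnf, with 5 to 18 counts, gave -0.62 at P3 (adjusted p = 0.78) and -0.23 at P7 (adjusted p = 0.75). Il4 had 0 to 3 counts and was not tested.

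Marker lists of the cells that make or answer these chemokines were read beside them. At P7 9.63% of all tested genes were called higher and 8.59% lower, against which the counts of each list are to be read. Of 14 tested macrophage genes, 0 rose and 3 fell at P7 (Mrc1, -0.60, Itgam, -0.96, and Folr2, -0.96), and the summed level ran from 139 to 186 CPM in P7 sham and from 124 to 141 in P7 PAB. Adgre1, Cd68 and Csf1r, which define these cells, gave log2 fold changes of -0.20, 0.26 and -0.31 and did not pass the test (adjusted p of 0.42, 0.28 and 0.13). Of 7 tested monocyte genes other than Ccr2, Plac8 (0.99) and S100a4 (1.01) rose and F13a1 (-0.75) fell. Ly6c2, a marker of inflammatory monocytes, was at -0.44 (adjusted p = 0.38) and Chil3 had 0 to 5 counts. The summed level of this list was 813 to 944 CPM in sham and 746 to 802 in PAB. The list also holds Fn1 and Vcan, which are not particular to monocytes, so the sum is not a measure of these cells. None of 8 tested neutrophil genes was called, with sums of 7.67 to 12.6 and 9.78 to 13.6 CPM.

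Of 11 endothelial genes, a source of Cxcl12 and Cx3cl1, none was called at P7, but the sums were 1770 to 1900 CPM in sham and 1520 to 1690 in PAB. Pecam1 gave -0.14 (adjusted p = 0.13), and Cdh5 (-0.53, adjusted p = 0.00049) and Kdr (-0.50, adjusted p = 3.9e-05) were lower by less than 1.5-fold. Of 10 fibroblast genes Pdgfra (-0.63) and Col3a1 (-0.59) fell, while Col1a1 and Col1a2 gave -0.27 and -0.04 (adjusted p of 0.11 and 0.77), with sums of 6230 to 6280 and 4770 to 5680 CPM. These sums moved in the direction of Cxcl12 and Cxcr4 at P7. The median log2 fold changes of the lists were smaller, at -0.112 for endothelium and -0.064 for fibroblasts (all tested genes -0.00374). The part of these cells in the Cxcl12 and Cxcr4 results was not tested. No marker list had a call at P3. Of the T cell list 4 of 10 genes were tested, and its sums were 23.1 to 33.4 and 24.8 to 25 CPM while those of the B cell list were 7.82 to 9.64 and 5.55 to 9.12 CPM at P7, with no call.

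In the lists of the heart wall, smooth muscle and pericyte genes had 2 higher and 1 lower of 9, epicardial genes 1 and 2 of 8, cardiomyocyte genes 1 and 2 of 10, and atrial genes 2 and 1 of 6. Among the higher atrial genes was Nppa (21.1-fold), which the study names as a marker of hypertrophy. The summed cardiomyocyte level was 66000 to 74800 CPM in P7 sham and 59400 to 66500 in P7 PAB. No erythroid gene of 7 was called, and of the thymus list Rag2 was at 0 in all libraries.

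The genes whose log2 CPM followed that of these chemokine genes most closely over the 11 libraries were sought for the 3 with a mean of at least 5 CPM. For Cxcl12 they were Axl, a receptor tyrosine kinase (Pearson r 0.975), and Rsph3b (0.971). For Cx3cl1 they were Psmg4 (0.965) and Ube2j2 (0.964), and for Cxcr4 Adamts15, a secreted metalloprotease (0.953), and Gm42748, a predicted gene (0.91). These values are descriptions over 11 libraries that share 4 group differences, and each was picked as the highest among 15808 tested genes. Between pairs of the tested chemokine genes of the set the lowest r was -0.711, for Cxcl1 and Cxcr4.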

How the data were processed

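RNA-seq counts of 11 mouse libraries were analysed. The authors deposited whole counts per gene, unnormalized, with 1 column per library, and the columns were matched to samples by name. Per the labels and the methods, reads were aligned with STAR 2.5.2b to GRCm38 (mm10) with the Gencode annotation. The counting tool and strand setting are not given in the sources used here, so reads of overlapping genes could be shared between them. Positions and exonic lengths came from GENCODE M21 on GRCm38 and promoters from RefSeq on GRCm38.p6, in which 8 of the 10 genes were found.

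Tests used edgeR 4.0.16 in R 4.3.3 (TMM, filterByExpr, quasi-likelihood fit of 4 groups, Benjamini-Hochberg adjustment), in steps tested on simulated data. Figures used Python 3.11.15 and matplotlib 3.10.9. Calls needed 1.5-fold or more and an adjusted p no higher than 0.05, the interaction the adjusted p alone. By rule, all 10 genes were named, and from the other lists chemokines and receptors called with PAB, up to 4 called genes of each further pathway list and 2 of each marker list by lowest p, Tnf and Il4, and the first 3 markers of each list, printed here for macrophages, monocytes, endothelium and fibroblasts. Cx3cr1, Ackr3, Ccr1, Cxcr2, Ccl12, Dpp4, Adam10, Folr2, C1qa, Dcn, Lum and Mfap5 fall outside the rule and were named after their values were seen. A receptor of the lists is not reported here. The genes and lists were chosen with earlier results of these data known. Alternatives were RLE size factors, total count scaling, no filter, a stricter filter (10 or more counts throughout 1 group, mean count 50 or more), DESeq2 1.42.0, other thresholds, 2-group fits, a replicate block, removal of the trend with length (lowess, span 0.3), the Xist and Y class, and leaving out each library. An unfiltered fit with bias-adjusted residuals was added after seeing the data. The chi-square per gene between replicates was 4.27 to 12.6, above sampling noise.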

Additional observations from a re-analysis of the deposited data

Results flagged for a closer look

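The effect of PAB differed between the ages for 3 of the 9 tested genes by edgeR's interaction test, which 25.9% of all tested genes passed. For Ccl2 the log2 fold change with PAB was 1.31 larger at P7 than at P3 (adjusted p = 0.033), from 0.49 at P3 to 1.80 at P7, with both P7 PAB libraries above all P7 sham libraries. It was not past the threshold in 7 of 11 fits without a library (1.09 to 1.36, adjusted p of 0.056 to 0.083) or with the length trend removed (1.00, adjusted p = 0.11). For Cxcr4 the difference was -0.875 (adjusted p = 0.015), from 0.09 to -0.78, and for Cxcl12 it was -0.615 (adjusted p = 0.0025), from 0.13 to -0.49. In both, each of the P7 PAB libraries was below each P7 sham library. The value for Cxcr4 was not past the threshold with sex class as a term (-0.64, adjusted p = 0.12) or without P7 PAB replicate 1 (-0.75, adjusted p = 0.08). Sex class differs between the P7 groups in every library, and its part in the Ccl2, Cxcr4 and Cxcl12 values was tested only through the class term, which leaned on P3 sham replicate 1 as the 1 library that shares a group with the other class.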

How the results depend on the processing

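No direction reversed among called values. At P7, PAB called 2 genes, 4 without the fold threshold (Cx3cl1 and Cxcl12 added, 4 of 9 or 44.4% against 44.9% of all tested genes), 1 under the stricter filter, which did not test Ccl2 (18.3% of all), and 1 with the Xist and Y class (Ccl2, 13.6% of all). The P7 count was 3 at an unadjusted p (Ccl7 added, 19.9% of all) and 2 to 3 without 1 library. At P3 the count was 0, and 1 at an unadjusted p (1.95% of all). With age in sham hearts it was 4, but 2 under total count scaling (Ccl2 and Cx3cl1, both lower, 20.7% of all), 1 under the stricter filter (Cxcl12, 10.1% of all), which did not test Ccl2, Ccl9 or Ccr2, 2 with the class term (Ccl2 and Cxcl12, 8.46% of all) and 1 to 4 without 1 library. It was 1 without P3 sham replicate 1 and 2 without P3 sham replicate 2 or P7 sham replicate 1. With age in PAB hearts it was 0, but 1 at an unadjusted p (Ccr2, 19.5% of all), 2 without the fold threshold (43.5% of all), 1 under total count scaling (23.5% of all) and 1 with the length trend removed, without the block (13.7% of all) or with it (13.3% of all), Cxcr4 in each of the last 3. The interaction count was 3, and 1 to 3 without 1 library, with Cxcl12 alone passing without P7 PAB replicate 1 (16.2% of all, against 25.9%). Apart from the genes that the stricter filter left out, the cause of these changes was not tested. The planned unfiltered fit had an infinite prior on the variance, so its p-values take no account of each gene's own spread.

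Whether replicate numbers pair the libraries was not settled. Same-numbered libraries deviated together with correlations of -0.0499 to 0.144. Each P3 PAB library correlated best with its own number in P3 sham (0.0791 to 0.144, others at most 0.00516). Each P7 PAB library did so with its own number in P3 PAB (0.0365 and 0.0403, others at most 0.00305), but not in P7 sham (-0.00807 and -0.0499). With the replicate block the counts were 0 at P3 (0.19% of all), 2 at P7 (16.6%), 4 and 0 with age in sham and PAB hearts (11.5% and 16.8%) and 3 for the interaction (24.5%), the counts without it too, and Ccl2 at P7 was 1.90 (adjusted p = 0.00013).

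With 2 P7 PAB libraries and 4 to 38 counts per library for Ccl7, Cxcl1 and Ccr2, changes of these genes near 1.5-fold were not detectable.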

Other observations

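Lists of genes that respond fast to stimuli or to low oxygen were read at P7, where 9.63% of all tested genes were called higher and 8.59% lower. Of 22 immediate early genes 5 rose and 2 fell with PAB, and none was called at P3. Atf3, a stress-induced transcription factor, was at 8.89 CPM in P7 sham and 28.6 in P7 PAB on average (log2 fold change 1.69, adjusted p = 0.00077). Ier3 was at 16.5 and 25.9 CPM (adjusted p = 7.1e-05), and Btg2 at 39.5 and 63.9 CPM (adjusted p = 0.0056), while Klf4 went from 61.0 to 38.9 CPM (adjusted p = 0.00034). Of 16 hypoxia response genes 4 rose and 1 fell at P7, and none was called at P3. Bnip3, a mitochondrial protein of the response to low oxygen, went from 55.5 to 160 CPM (log2 fold change 1.52, adjusted p = 1.3e-07), Ldha from 621 to 1348 CPM (adjusted p = 5.2e-06) and Slc2a1, a glucose transporter, from 13.3 to 27.7 CPM (adjusted p = 6.5e-05), while Epas1 went from 272 to 176 CPM (adjusted p = 0.00013). These P7 values share the limits of the comparison given above, with 2 PAB libraries and sex class that cannot be told apart from PAB. They also include the fall of counts with gene length in the P7 PAB libraries. With that trend removed 13.5% of all tested genes were called at P7, against 18.2%. No value without the trend is given for these genes.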
